A study of Mus musculus with 24 samples.

Results

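The cytosolic ribosomal proteins were followed at the RNA level through activation and TH1 differentiation of mouse CD4 T cells. Members were the rows of the count tables whose symbol was Rpl or Rps followed by a number, with an optional closing letter and number, and the rows Rpsa, Rplp0, Rplp1 and Rplp2. Symbols that mark pseudogenes and the Rps6k kinases were left out. This gave 84 of 23420 gene symbols, 51 of the large and 33 of the small subunit, of which 81 had enough counts to be tested. RNA sequencing was done on 24 libraries of sorted cells, 6 for each of 4 states. All cells came from mice on a C57BL/6 background with the OT-II T cell receptor transgene and a Nr4a1 (Nur77) promoter reporter that drives GFP and Cre, given as OT2Nur77GFP+/-, so every state carried both transgenes. Reactivated TH1 cells had been differentiated for 5 days and were then restimulated for 6 h with antigen-pulsed macrophages. TH1 effector cells were differentiated in the same way, activated naive cells were naive T cells stimulated for 6 h, and naive cells came from spleen without stimulation. The stimulus of the naive cells is not named in the sources used here. No group with macrophages and no antigen was analysed here, so antigen and co-culture cannot be told apart. The libraries of a group are titled M1 to M6, called numbers 1 to 6 here, and each title number recurs in all 4 states. The labels do not say whether M marks separate mice, cultures or something else. The p-values given here therefore rest on the spread between libraries, which may be technical.

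A cytosolic ribosome joins a small subunit, which holds the mRNA and its decoding centre, to a large subunit, which forms the peptide bond and the exit tunnel. Each subunit carries its proteins in single copies apart from the acidic stalk proteins. Messages of most ribosomal proteins begin with a C followed by further pyrimidines, the 5′ terminal oligopyrimidine (TOP) tract, through which MTOR and LARP1 set how well they are translated. In T cells, exit from quiescence after antigen contact is known for growth in cell size and a rise in protein synthesis. A few members have close relatives that can take their place in the ribosome or act in its assembly, and those are described separately below.

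The start of the genes was looked at first, since the TOP tract is the feature these messages are known for. Promoter entries of RefSeq (GRCm38.p6) were matched to 63 of the 84 members by symbol, and the windows of 15 bases before to 15 bases from the annotated start are shown for the members on which the results below turn. Capitals mark a run of at least 7 pyrimidines that begins with C. In Rps6, Rpl28 and the first of 2 entries of Rps21 the run begins 1 to 2 bases before the annotated start. Rps26 and Rpl39 have it just inside the message, and Rps27l has it upstream in the first of its 2 entries. No such run was found in these windows of Rpl7l1, Rps2 and Rplp0.
Rps6: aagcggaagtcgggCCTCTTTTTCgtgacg
Rpl28: ccgcctctcgtgtCTCTCTTTCCgtctccg
Rps21: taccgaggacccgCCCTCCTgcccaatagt
Rps26: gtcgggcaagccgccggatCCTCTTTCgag
Rpl39: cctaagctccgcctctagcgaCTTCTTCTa
Rps27l: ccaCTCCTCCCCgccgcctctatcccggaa
Rpl7l1: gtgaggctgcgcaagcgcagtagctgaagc
Rps2: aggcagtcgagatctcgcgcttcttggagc
Rplp0: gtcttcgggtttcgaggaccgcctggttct
Each sequence is written 5′ to 3′ on the strand of its gene. On the plus strand lie the windows of Rpl28 at chr7:4792950-4792979, Rps21 at chr2:180257364-180257393, Rps27l at chr9:66946071-66946100, Rps2 at chr17:24720048-24720077 and Rplp0 at chr5:115559452-115559481. On the minus strand lie those of Rps6 at chr4:86857353-86857382, Rps26 at chr10:128626492-128626521, Rpl39 at chrX:37085208-37085237 and Rpl7l1 at chr17:46782642-46782671. In GENCODE M21 on the same assembly the genes themselves span chr9:66946086-66949516 (Rps27l), chr17:46773907-46782672 (Rpl7l1), chr17:24718116-24721929 (Rps2), chr7:4792874-4795066 (Rpl28), chr10:128624534-128626747 (Rps26) and chrX:37082520-37085402 (Rpl39), and counts were given per gene, with no position within it.

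Over all members with an entry, 32 of 63 (50.8%) had the pyrimidine run in the window, against 16.4% of the 27025 genes in the table. The letters CCGGAA, the core that ETS factors read, were found on either strand of the 300-base entry (250 bases before to 50 after the start) in 35 members (55.6%) and in 16.7% of all genes. The letters AAGATGGCG, read by YY1, were found in 4 members (6.35%) and in 1.64% of all genes, while TATAAA was found in 7 members (11.1%) and in 15.7% of all genes. The window follows the annotated start, so a run that begins at a start used in these cells but not annotated was missed. Members with and without the run covered overlapping ranges of response. Among members with at least 10 CPM (counts scaled to a common depth, on TMM-scaled library totals) in every group, the log2 fold change of activated naive against naive cells ran from -0.67 to 1.94 (median 0.0063) for the 29 with the run and from -0.53 to 1.81 (median -0.06) for the 28 without it. For TH1 effector against naive cells the medians were 0.58 with the run and 0.49 without it.

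The libraries held 18457653 to 34262645 counts given to genes. Of 8 T cell marker genes 7 were in the tables, none at 0 in any group. Summed, they stood at 2575 to 3046 CPM in reactivated TH1 and 2691 to 3137 CPM in TH1 effector libraries. Both naive states lay higher, at 3507 to 4146 CPM in activated naive and 3900 to 4134 CPM in naive libraries. Macrophage markers (9 of 10 in the tables) summed to 10.3 to 14.3 CPM in reactivated TH1 libraries, with none at 0, against 3.21 to 4.78 CPM in TH1 effector libraries, with Csf1r, Fcgr1, C1qa and C1qb at 0. They summed to 9.26 to 11.4 CPM in activated naive and 7.89 to 11.7 CPM in naive libraries. Dendritic cell markers (4 of 4) summed to 6.44 to 10.1 CPM in reactivated TH1 libraries and at most 3.72 CPM elsewhere, and B cell markers (6 of 6) to 5.11 to 22.0 CPM in TH1 effector libraries and at most 3.92 CPM elsewhere. CD8 T and NK cell markers (4 of 4) reached 33.0 CPM in naive libraries and 7.42 CPM elsewhere, and red cell and neutrophil markers (3 of 5) at most 1.75 CPM. Their part in the results was not tested.

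Not every member could be read. Rpl26 had no count in any library, Rpl10l had 1 and Rpl3l had 7 over all 24 libraries, and these 3 were not tested. Rpl10l and Rpl3l are relatives of Rpl10 and Rpl3 known for expression in testis and in striated muscle. Another 5 members, Rps27, Rpl34, Rpl30, Rpl39l and Rps4y2, were tested but averaged at most 4.86 CPM in every group, while the remaining 76 averaged at least 16.7 CPM in every group. Rpl26, Rpl30, Rpl34 and Rps27 encode constituents of every cytosolic ribosome, so their nearly empty rows are not read as low expression. How the reads of these genes were counted was not tested. Processed pseudogenes with near-identical sequence exist for most members, so every level is uncertain to the extent that reads were shared. Reads aligned to more than 1 place were counted against all reads in the tables, those given to no gene included. They stood at 6.91% in reactivated TH1, 7.53% in TH1 effector, 6.63% in activated naive and 5.92% in naive libraries on average. Exons of 27 members overlap another gene on the same strand and those of 19 a gene on the other strand. Among the named members these are small nucleolar RNA genes within Rpl10, Rpl13a, Rpl23a, Rpl5, Rplp2, Rps12 and Rps2, predicted genes at Rpl3 and Rpsa, and genes on the other strand at Rpl10a, Rpl22l1, Rpl23a, Rpl28, Rpl5 and Rps2.

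Summed over all 84 members, ribosomal protein genes held 7.58 to 9.04% of the gene counts in reactivated TH1 libraries (median 8.72%) and 8.83 to 11.6% in TH1 effector libraries (median 10.0%). In activated naive libraries they held 5.76 to 6.63% (median 6.30%) and in naive libraries 6.69 to 7.68% (median 7.31%). All TH1 libraries lay above all libraries of the naive states, except that the lowest reactivated TH1 library (7.58%) was under the highest naive one (7.68%), and no activated naive library reached the lowest naive one. Fewer T cells among the sorted cells and less ribosomal protein RNA per cell cannot be told apart in bulk samples. Means were 8.47 ± 0.626% in reactivated TH1, 10.2 ± 0.964% in TH1 effector, 6.27 ± 0.341% in activated naive and 7.23 ± 0.357% in naive libraries (SD, n = 6 each). The order of the 4 means was the same in each sequencing run of 3 libraries per group: 8.89%, 10.9%, 6.41% and 7.28% in the first, 8.05%, 9.41%, 6.12% and 7.19% in the second, for reactivated TH1, TH1 effector, activated naive and naive cells in that order. Reads that met no counted feature stood at 15.6%, 17.2%, 22.8% and 23.1% in the same order, lower in both TH1 groups than in both naive ones. These are shares of all reads in the tables, those given to no gene included, and not of the gene counts. Their part in the shares of the members was not tested. A share of counts is not an amount of RNA per cell, which was not measured.

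**Figure D1:**
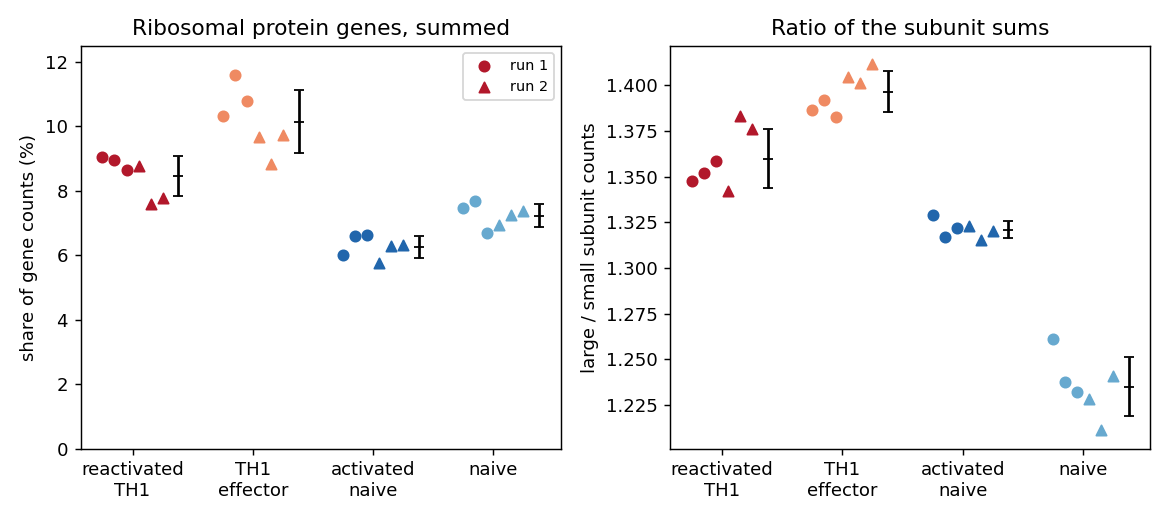
Share of gene counts held by the 84 ribosomal protein genes (left, percent) and ratio of the summed large subunit counts to the summed small subunit counts (right, axis not starting at 0), by group, each point a library and its shape the sequencing run. Bars give the mean and SD of 6 libraries; the share is highest in TH1 effector libraries (mean 10.2%), and the ratio is lowest in naive libraries (mean 1.24), below every other group.

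The balance of the subunits differed too. For each count of a small subunit gene, large subunit genes had 1.34 to 1.38 counts in reactivated TH1 libraries (mean 1.36 ± 0.0163 SD, n = 6) and 1.38 to 1.41 in TH1 effector libraries (1.40 ± 0.0111). The ratio was 1.32 to 1.33 in activated naive (1.32 ± 0.00480) and 1.21 to 1.26 in naive libraries (1.24 ± 0.0164). Naive libraries lay below all others, as the plot of shares and ratios shows. No gene dominated the sum: Rplp0 held 3.77% of the members' counts in reactivated TH1, 4.06% in TH1 effector, 3.61% in activated naive and 2.94% in naive cells, and the 10 largest members held between 25.7 and 26.5% in each group. Divided by the length of the principal transcript, Rplp1 had the highest level of the 76 well-counted members in every group, at 3018 CPM per kilobase in reactivated TH1, 3020.0 in TH1 effector, 2296 in activated naive and 3023 in naive cells. The median member stood at 1467, 1561, 1090.2 and 1144 CPM per kilobase in the same order. Rpl7l1, Rps27l and Rpl22l1, each a relative of another member, were the 3 lowest in every group, at 33.1 CPM per kilobase for Rps27l in naive cells.

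Naive cells stimulated for 6 h changed single ribosomal protein genes in both directions. Of the 81 tested, 28 were higher and 32 lower in activated naive than in naive cells, and 21 did not pass edgeR's quasi-likelihood test at an adjusted p of 0.05. Over all 12584 tested genes 81.9% were called, 41.3% higher and 40.5% lower. Scaled by total counts alone the split was 14 higher and 43 lower, with the members' median at -0.17 and the median of all genes at -0.14 on the log2 scale, so the balance of directions depends on the scaling. With the scaling used elsewhere here (TMM), the medians were -0.00026 for the members and 0.0046 for all genes. Changes were small: 63 of the 76 well-counted members moved by at most 0.5 on the log2 scale, against 29.8% of all genes, and the members' quartiles were -0.26 and 0.20. In the large subunit 20 of 48 tested members were higher and 13 lower, and in the small subunit 8 of 33 were higher and 19 lower. Some of these calls were rows under 10 CPM. The 76 well-counted members alone gave 24 higher and 31 lower. Of these, 17 of 45 were higher and 13 lower in the large subunit, and 7 of 31 higher and 18 lower in the small. Groups did not overlap for 16 members that were higher and 21 that were lower, which is 19.8% and 25.9% of the members against 33.3% and 33.0% of all genes.

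Members that stood out upwards were led by relatives of core proteins. Rps27l, a relative of Rps27 and in human cells a target of p53, had 134 to 149.8 CPM (median 140.3) in reactivated TH1, 83.5 to 90.5 (median 87.6) in TH1 effector, 56.3 to 77.6 (median 61.6) in activated naive and 14.8 to 18.7 (median 16.5) in naive libraries. The 4 groups did not overlap, and activated naive cells had 3.84 times the naive level (log2 fold change 1.94, SE 0.079, adjusted p = 1.62e-19). Rpl7l1, a relative of Rpl7 whose yeast counterpart acts in large subunit assembly, had 208 to 242.9 CPM (median 226) in reactivated TH1, 94.0 to 109 (median 103) in TH1 effector, 236.4 to 271 (median 262) in activated naive and 69.8 to 78.1 (median 73.3) in naive libraries. Its activated naive libraries were all above the naive ones, at 3.50 times their level (log2 fold change 1.81, SE 0.03, adjusted p = 8.32e-22). Rps2, a core protein at the mRNA entry channel, had 1498 to 2433 CPM (median 1898) in reactivated TH1, 1347 to 2326 (median 1969) in TH1 effector, 1464 to 2019 (median 1899.5) in activated naive and 692 to 1018 (median 852) in naive libraries. Only the naive libraries stood apart, at a lower level than the other 3 groups, which overlapped each other (activated naive against naive: log2 fold change 1.09, SE 0.099, adjusted p = 1.67e-11). Rpl10a, the protein of the L1 stalk beside the tRNA exit site, had 772 to 878 CPM (median 822) in reactivated TH1, 811 to 1004 (median 941) in TH1 effector, 720.4 to 829.5 (median 794) in activated naive and 448 to 572 (median 508) in naive libraries, again with the naive libraries below all others (activated naive against naive: log2 fold change 0.64, SE 0.045, adjusted p = 8.46e-11).

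**Figure D2:**
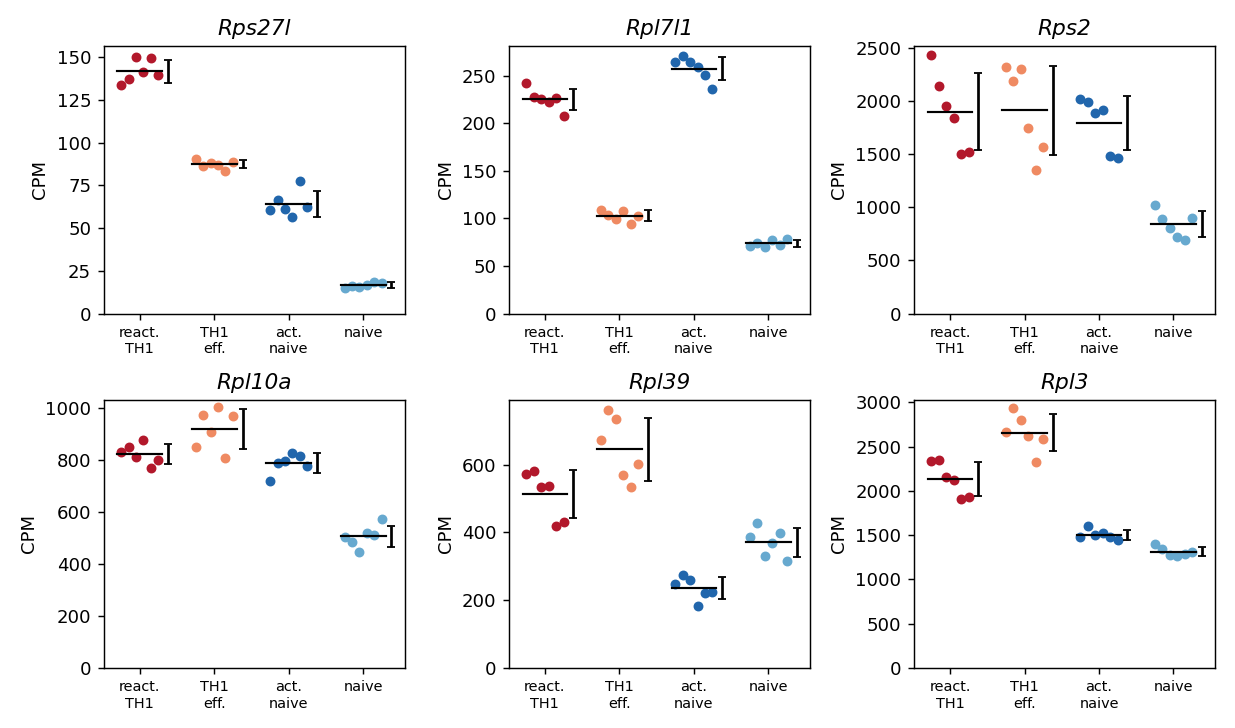
Levels in CPM of 6 ribosomal protein genes, each point a library, with the mean as a line and the SD of 6 libraries beside it, in reactivated TH1, TH1 effector, activated naive and naive cells. Rps27l separates all 4 groups, Rpl7l1 is high in both stimulated groups, and Rps2 and Rpl10a are lowest in naive cells.

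Members that stood out downwards were core proteins. Rpl39, which lines the exit tunnel, had 418 to 580.4 CPM (median 535) in reactivated TH1, 533 to 761 (median 636) in TH1 effector, 182 to 273 (median 235.9) in activated naive and 314 to 427 (median 377) in naive libraries. The activated naive libraries lay below all others (against naive: log2 fold change -0.67, SE 0.091, adjusted p = 1.51e-08). Rps21 had 268 to 357 CPM (median 309.9) in activated naive and 459 to 541 (median 482) in naive libraries (log2 fold change -0.65, SE 0.06, adjusted p = 1.34e-09). Rpl13a, in human myeloid cells known for a translational control role outside the ribosome, had 944 to 1168 CPM (median 1058) in activated naive and 1422 to 1895 (median 1566) in naive libraries (log2 fold change -0.62, SE 0.07, adjusted p = 2.08e-09). In each of these 3 genes no activated naive library reached the lowest naive one. Smaller falls that passed were those of Rpl5 (-0.26), Rps6 (-0.22), Rps4x (-0.28), Rpl17 (-0.53), Rps14 (-0.38), Rps23 (-0.49), Rps29 (-0.56), Rplp1 (-0.41) and Rpl23a (-0.16), given as log2 fold changes. The call of Rpl23a was lost in each run alone, and its libraries overlapped. Smaller rises that passed were those of Rps12 (0.61), Rplp0 (0.26), Rps26 (0.26), Rpl3 (0.20), Rpl10 (0.20), Rpsa (0.18) and Rpl28 (0.16). The calls of Rplp0, Rps26, Rpl3, Rpl10 and Rpsa were lost with scaling by total counts alone. The value of Rpl28 turned to -0.0090 there (quasi-likelihood test, adjusted p = 0.909). Its call held in only 5 of 18 alternative settings, and was also lost under DESeq2 and in each run alone.

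**Figure D3:**
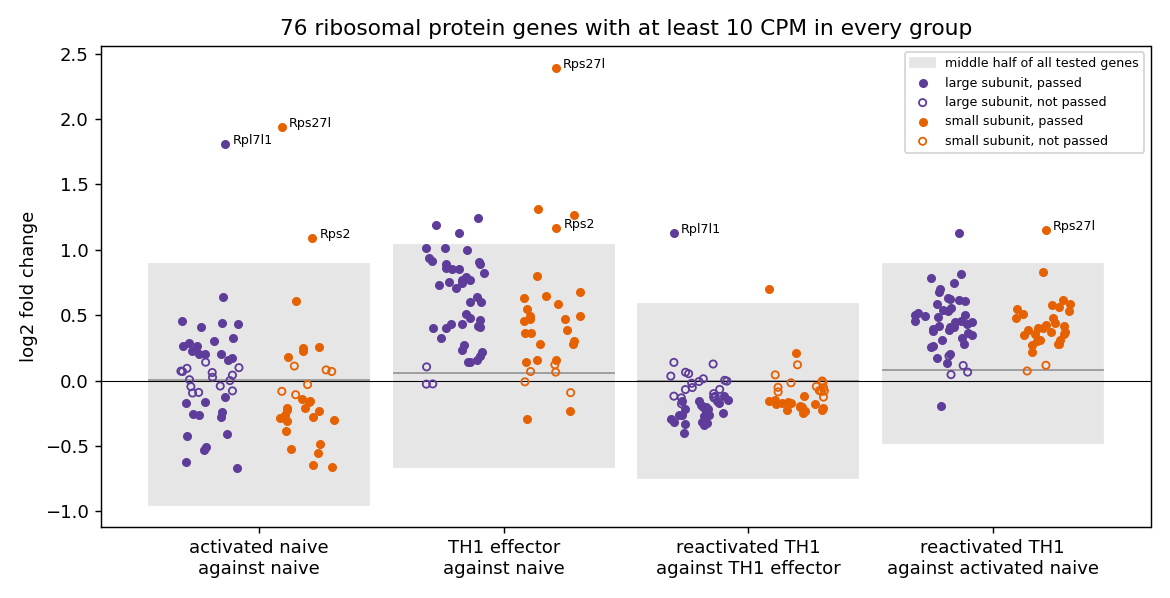
Log2 fold changes of the 76 ribosomal protein genes with at least 10 CPM in every group in 4 comparisons, large subunit on the left and small subunit on the right of each, filled where the adjusted p was under 0.05. The grey box spans the quartiles of all 12584 tested genes and the grey line is their median; members spread to both sides of 0 in activated naive against naive cells, and lie mostly above 0 in TH1 effector against naive and in reactivated TH1 against activated naive cells.

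Most of these genes were higher after differentiation into TH1 cells. Of 81 tested, 69 were higher and 3 lower in TH1 effector than in naive cells, and 9 did not pass. Among the 76 well-counted members, 66 were higher and 2 lower. Over all genes 84.9% were called, 44.6% higher and 40.3% lower. The members' median log2 fold change was 0.49, against 0.06 over all genes, and 48 members had TH1 effector libraries all above the naive ones (59.3% of members, against 36.8% of all genes). The naive libraries are shared with the comparison above. The large subunit had 44 of 48 higher and none lower, with a median of 0.67, and the small subunit 25 of 33 higher and 3 lower, with a median of 0.39. Only 9 of the 76 well-counted members moved by more than 1 on the log2 scale, and 42.0% of all genes did.

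Among the well-counted members Rps27l again led, with TH1 effector cells at 5.25 times the naive level (log2 fold change 2.39, SE 0.036, adjusted p = 6.75e-21). Rps12, a protein of the small subunit beak, had 1101 to 1548 CPM (median 1407) in reactivated TH1, 1232 to 1804 (median 1449) in TH1 effector, 748 to 1051 (median 876) in activated naive and 540.0 to 648 (median 604) in naive libraries, with the naive libraries below all others (TH1 effector against naive: log2 fold change 1.31, SE 0.062, adjusted p = 1.03e-14). Rps26, which sits where the mRNA leaves the small subunit, had 832 to 1012 CPM (median 873) in reactivated TH1, 936 to 1085 (median 1019) in TH1 effector, 467 to 533 (median 509) in activated naive and 335 to 450.2 (median 435) in naive libraries; both TH1 groups lay above both naive groups (TH1 effector against naive cells, log2 fold change 1.27, SE 0.073, adjusted p = 8.99e-16). Rpl28, a protein of the large subunit found in animals and not in bacteria, had 915 to 1147 CPM (median 1061) in reactivated TH1, 1162 to 1538 (median 1314) in TH1 effector, 583 to 646 (median 633) in activated naive and 462 to 599 (median 576) in naive libraries (TH1 effector against naive cells, log2 fold change 1.24, SE 0.076, adjusted p = 7.79e-15). For these 3 genes the level was at least 2.37 times that of naive cells. On the other side, Rps29 had 828.97 to 1008 CPM (median 895) in TH1 effector and 878 to 1188 (median 1149) in naive libraries (log2 fold change -0.30, SE 0.079, adjusted p = 0.000296), and Rps21 had 330.1 to 521 CPM (median 413) in TH1 effector and 459 to 541 (median 482) in naive libraries (log2 fold change -0.23, SE 0.054, adjusted p = 0.00232). In both genes the 2 groups overlapped, and both calls were lost in the first sequencing run alone. The third member called lower, Rps27, is among the nearly empty rows, at 0.884 to 1.58 CPM (median 1.26) in TH1 effector and 2.63 to 4.34 (median 3.94) in naive libraries.

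In reactivated TH1 cells most of the changes that passed were small falls. Of 81 tested, 6 were higher and 40 lower in reactivated TH1 than in TH1 effector cells, and 35 did not pass. The 76 well-counted members alone gave 3 higher and 40 lower. Over all genes 79.7% were called, 39.9% higher and 39.8% lower. The median log2 fold change was -0.13 for the members and -0.0023 for all genes, and 74 of the 76 well-counted members moved by at most 0.5, against 40.8% of all genes. Groups did not overlap for 5 members that were higher and 3 that were lower. These were 6.17% and 3.70% of members, against 30.0% and 29.4% of all genes. Of the 5, Rps27, Rpl30 and Rpl34 are nearly empty rows. Most of the falls that passed came with overlapping libraries. Scaled by total counts alone 61 members were lower, with a median of -0.26 beside -0.12 for all genes. The second sequencing run alone gave 16. Macrophage and dendritic cell markers were higher in the reactivated libraries, as given above.

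Among the well-counted members Rpl7l1 and Rps27l had the largest rises, by 1.13 (SE 0.043, adjusted p = 2.77e-17) and 0.70 (SE 0.033, adjusted p = 1.32e-10) on the log2 scale, and the libraries of both did not overlap. Rps27, Rpl30 and Rpl34 were also called higher and are nearly empty rows. Among the falls, Rpl17 of the exit tunnel had 999.8 to 1247 CPM (median 1171) in reactivated TH1 and 1306 to 1761 (median 1476) in TH1 effector libraries (log2 fold change -0.40, SE 0.066, adjusted p = 1.14e-06). Rpl28 fell to levels below every TH1 effector library (log2 fold change -0.34, SE 0.073, adjusted p = 6.96e-05). Rpl39 fell by 0.33 on the log2 scale with overlapping libraries (SE 0.07, adjusted p = 0.000424). Rpl36a, which touches the tRNA in the exit site, had 404 to 511 CPM (median 452) in reactivated TH1 and 512 to 615 (median 569) in TH1 effector libraries without overlap (log2 fold change -0.32, SE 0.07, adjusted p = 0.000102).

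Set beside activated naive cells, reactivated TH1 cells had more of nearly all members: 71 of 81 were higher, 1 was lower and 9 did not pass. Without the rows under 10 CPM, 69 of 76 were higher and 1 lower. Over all genes 79.8% were called, 43.4% higher and 36.4% lower. The median log2 fold change was 0.42 for the members and 0.08 for all genes. Groups did not overlap for 53 members, all higher in reactivated TH1 cells (65.4%, against 33.7% of all genes). Both groups are shared with comparisons above. In the large subunit 41 of 48 and in the small subunit 30 of 33 were higher. Of the well-counted members, Rps27l (1.15, SE 0.078, quasi-likelihood test, adjusted p = 8.55e-15) and Rpl39 (1.13, SE 0.08, adjusted p = 1.14e-12 in the same test) were more than 2 times as high in reactivated TH1 cells. Rps26 (0.83) and Rpl23a (0.81) followed. Rpl23a, at the end of the exit tunnel where the signal recognition particle docks, had 912 to 1106 CPM (median 1039) in reactivated TH1, 1095 to 1269 (median 1170.5) in TH1 effector, 535 to 596 (median 593) in activated naive and 584 to 674 (median 660.0) in naive libraries. Both TH1 groups lay above both naive groups. Rpl7l1 was the member called lower, by a small amount and with overlapping libraries (log2 fold change -0.19, SE 0.032, adjusted p = 0.00046).

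The study stimulated cells before and after differentiation, so the responses themselves can be set against each other in the same fit. The response of TH1 cells (reactivated TH1 against TH1 effector) was higher than that of naive cells (activated naive against naive) for 14 of 81 members and lower for 31, and 36 did not pass. For the 76 well-counted members the counts were 13 higher and 31 lower. Over all genes 68.0% were called, 34.3% higher and 33.7% lower. The median difference was -0.06 on the log2 scale for the members and -0.0039 for all genes. In the large subunit 5 of 48 were higher and 23 lower, with a median of -0.18, and in the small subunit 9 of 33 were higher and 8 lower, with a median of 0.0059. Rps27l had the most negative difference (log2 difference -1.24, SE 0.086, adjusted p = 5.37e-12) with a response of 0.70 in TH1 cells and 1.94 in naive cells. Rps2 followed (log2 difference -1.10, SE 0.13, adjusted p = 2.55e-08), with a response of -0.0034 in TH1 cells and 1.09 in naive cells. Rpl10a (log2 difference -0.80, SE 0.077, adjusted p = 2.57e-09) and Rps12 (log2 difference -0.74, SE 0.1, adjusted p = 7.56e-07) came next. In TH1 cells Rpl10a was lower (-0.16) and Rps12 did not pass (-0.13, adjusted p = 0.113), while both were higher after stimulation in naive cells.

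Among the positive differences of well-counted members were those of genes that fell in stimulated naive cells and whose values in TH1 cells lay close to 0. Rps21 (log2 difference 0.63, SE 0.085, adjusted p = 1.65e-06) had responses of -0.017 in TH1 cells and -0.65 in naive cells, and Rps29 (log2 difference 0.51, SE 0.099, adjusted p = 4.69e-05) of -0.045 and -0.56. Rps23, a protein of the decoding centre, had 902 to 1226 CPM (median 1082) in reactivated TH1, 971 to 1300.0 (median 1122) in TH1 effector, 659 to 769.5 (median 717) in activated naive and 951 to 1083 (median 991) in naive libraries. Its activated naive libraries were below all other groups, and the difference of its responses was positive (log2 difference 0.41, SE 0.073, adjusted p = 0.000102). Rpl7l1 had a difference of -0.67 although it rose in both settings. Of the 76 well-counted members, 20 were lower in both responses, 12 lower in the TH1 response alone and 11 in the naive response alone. A further 8 were lower in TH1 and higher in naive cells (Rpl10a, Rpl24, Rpl28, Rpl3, Rpl32, Rpl6, Rplp0 and Rps26), 14 did not pass in TH1 cells and were higher in naive cells, and 8 passed in neither. Rps27l and Rpl7l1 were higher in both. The shares of these patterns over all genes were not counted, so the patterns are not read as particular to the members. Singly, the naive response was called in 81.9% and the TH1 response in 79.7% of all genes. These 2 responses share no library. Across the 76 members they had a Pearson correlation of 0.665 and a Spearman correlation of 0.341, and without Rps27l and Rpl7l1 values of 0.294 and 0.286 over 74 members; the members are read from the same libraries, so these values are a description.

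**Figure D4:**
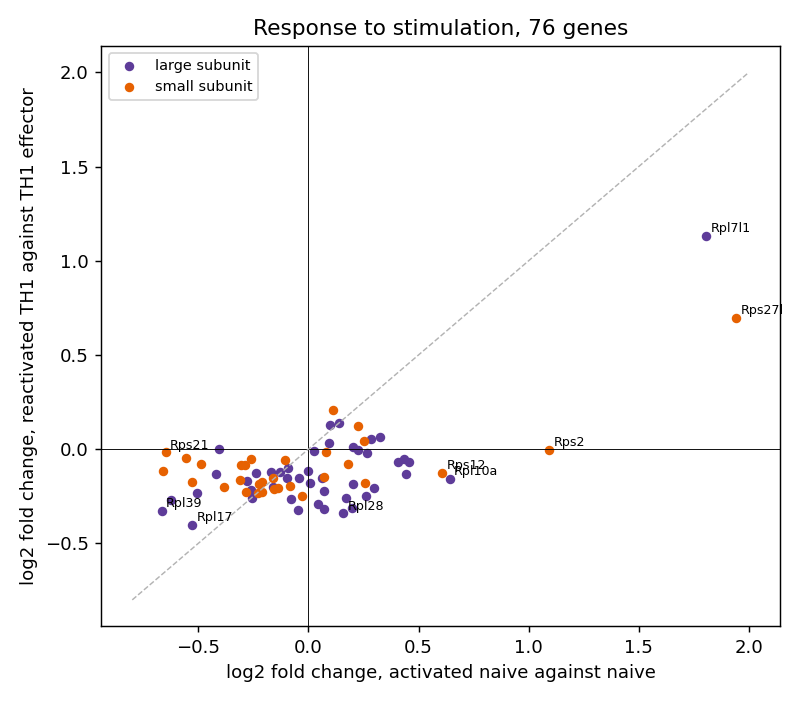
Log2 fold change of reactivated TH1 against TH1 effector cells (vertical) set against that of activated naive against naive cells (horizontal), each point 1 of 76 ribosomal protein genes, with the dashed line marking equal responses. Rps27l and Rpl7l1 lie far to the upper right, Rps2 lies near 0 on the vertical axis and at 1.09 on the horizontal one, and most points lie between -0.5 and 0.5 on both axes.

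The stalk proteins, which draw elongation factors to the large subunit, did not move as a unit. Rplp0, the base of the stalk, had 2860.4 to 3647 CPM (median 3468) in reactivated TH1, 3508 to 4376 (median 3920.2) in TH1 effector, 2153 to 2611 (median 2335) in activated naive and 1718 to 2143 (median 2052) in naive libraries, with the TH1 groups above the naive groups. It was higher in TH1 effector than in naive cells (log2 fold change 0.99, SE 0.059, adjusted p = 4.76e-15) and higher in reactivated TH1 than in activated naive cells (log2 fold change 0.48, SE 0.05, adjusted p = 8.49e-09). Rplp1 had 1343 to 1595 CPM (median 1506) in reactivated TH1, 1295 to 1650.2 (median 1507) in TH1 effector, 978 to 1218 (median 1146) in activated naive and 1349.6 to 1648 (median 1508) in naive libraries, so that only activated naive cells stood apart, below the other groups. TH1 effector and naive cells had a log2 fold change of -0.026 (adjusted p = 0.707). Rplp2 had 767 to 1168 CPM (median 989) in reactivated TH1, 718 to 1230.3 (median 943) in TH1 effector, 778 to 1084 (median 929.6) in activated naive and 749.6 to 1030.1 (median 836) in naive libraries, and all 4 groups overlapped. No comparison of Rplp2 passed, with adjusted p from 0.115 to 0.617.

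Rpl5 and Rpl11 travel together with 5S ribosomal RNA and can bind MDM2 when assembly fails. Rpl5 had 1366 to 1743 CPM (median 1561) in reactivated TH1, 1575 to 1921 (median 1819.8) in TH1 effector, 1071 to 1161 (median 1147) in activated naive and 1204 to 1488 (median 1368) in naive libraries, and Rpl11 had 792 to 1121 CPM (median 984) in reactivated TH1, 903 to 1382 (median 1124) in TH1 effector, 679 to 873 (median 769) in activated naive and 681 to 834 (median 697) in naive libraries. Both were higher in TH1 effector than in naive cells, by 0.41 and 0.60 on the log2 scale, and both fell in reactivated TH1 cells, by 0.22 each. In stimulated naive cells Rpl5 fell (log2 fold change -0.26, SE 0.044, adjusted p = 0.000305), while Rpl11 stood at 0.07 (adjusted p = 0.27). Rps6, the substrate of S6 kinases, had 816 to 1099.7 CPM (median 1024) in reactivated TH1, 976 to 1231 (median 1121) in TH1 effector, 643 to 746 (median 687) in activated naive and 766 to 855 (median 809) in naive libraries. It was lower in activated naive than in naive cells without overlap (log2 fold change -0.22, SE 0.037, adjusted p = 0.000679) and higher in TH1 effector than in naive cells (log2 fold change 0.47, SE 0.041, adjusted p = 2.45e-08). Rpsa, the small subunit protein also known as the laminin receptor, had 2383 to 3294 CPM (median 3063) in reactivated TH1, 2471 to 3740.2 (median 3129.7) in TH1 effector, 2047 to 2381 (median 2144) in activated naive and 1752 to 2091 (median 1926) in naive libraries. TH1 effector libraries were all above the naive ones (log2 fold change 0.68, SE 0.065, adjusted p = 9.49e-10), and reactivated and effector TH1 cells did not pass (log2 fold change -0.08, SE 0.076, adjusted p = 0.299).

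Rpl3, next to the peptidyl transferase centre, had 1912 to 2353 CPM (median 2138) in reactivated TH1, 2323 to 2940.1 (median 2643) in TH1 effector, 1439 to 1605 (median 1491) in activated naive and 1264 to 1395 (median 1298) in naive libraries. Its naive libraries were the lowest and its TH1 effector level was 2.02 times the naive one (log2 fold change 1.02, SE 0.04, adjusted p = 1.97e-16). Rps14, whose human gene is known from the anaemia of the 5q deletion, had 912 to 1087 CPM (median 1039) in reactivated TH1, 1052 to 1331 (median 1157) in TH1 effector, 752 to 878 (median 831) in activated naive and 992 to 1149 (median 1075) in naive libraries. Only activated naive cells stood below the other groups (against naive cells, log2 fold change -0.38, SE 0.049, adjusted p = 1.13e-06), and TH1 effector against naive cells just missed the threshold (log2 fold change 0.12, SE 0.056, adjusted p = 0.0549). Rpl10, mutated in some human T cell leukaemias, had 1161 to 1607 CPM (median 1449) in reactivated TH1, 1261 to 1533 (median 1339) in TH1 effector, 1049.6 to 1254 (median 1139) in activated naive and 931 to 1062 (median 1004) in naive libraries. It was higher in TH1 effector than in naive cells (log2 fold change 0.46, SE 0.042, adjusted p = 2.52e-08) and did not pass between reactivated TH1 and TH1 effector cells (log2 fold change 0.014, SE 0.056, adjusted p = 0.828).

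Pairs of relatives were compared by the ratio of their counts within a library, which needs no scaling. The 5 pairs in 4 comparisons gave 20 exact two-sided permutation tests over 6 against 6 libraries, with Benjamini-Hochberg adjustment. The smallest p that these can give is 0.00216 (0.00618 adjusted). Rpl7l1 had 11.4 to 13.1% of the counts of Rpl7 (median 12.3%) in reactivated TH1, 4.85 to 5.73% (median 5.05%) in TH1 effector, 16.7 to 19.6% (median 18.9%) in activated naive and 4.95 to 5.603% (median 5.22%) in naive libraries. Both stimulated groups lay above both others. The log2 ratio was higher by 1.81 in activated naive than in naive cells (SE 0.0443) and by 1.25 in reactivated TH1 than in TH1 effector cells (SE 0.0484). In reactivated TH1 against activated naive cells the difference was -0.58 (SE 0.0449), each with an exact permutation adjusted p of 0.00618. TH1 effector and naive cells differed by -0.03 (SE 0.0479, exact permutation adjusted p = 0.630). Rpl7 itself had 1672 to 1948 CPM (median 1873) in reactivated TH1, 1908 to 2113 (median 1981) in TH1 effector, 1346 to 1446 (median 1405) in activated naive and 1338 to 1460.4 (median 1404) in naive libraries, and its activated naive and naive libraries overlapped.

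Rpl22, needed for the development of αβ T cells in mice, was compared with its relative Rpl22l1. Rpl22 had 423 to 498 CPM (median 474) in reactivated TH1, 486 to 646 (median 573) in TH1 effector, 319 to 370.3 (median 339.9) in activated naive and 292 to 370.3 (median 334) in naive libraries. Rpl22l1 had 146 to 193 CPM (median 149) in reactivated TH1, 181 to 209 (median 198) in TH1 effector, 93.6 to 141 (median 103) in activated naive and 97.0 to 112 (median 103) in naive libraries. Both were higher in TH1 effector than in naive cells, by 0.77 and 0.91 on the log2 scale, and lower in reactivated TH1 than in TH1 effector cells, by -0.29 and -0.32. Rpl22l1 had a median of 33.6% of the counts of Rpl22 in reactivated TH1, 34.5% in TH1 effector, 29.4% in activated naive and 30.6% in naive libraries, and no comparison of the ratio passed. The difference nearest to the threshold was 0.14 (SE 0.0578, exact permutation adjusted p = 0.0630) between TH1 effector and naive cells.

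**Figure D5:**
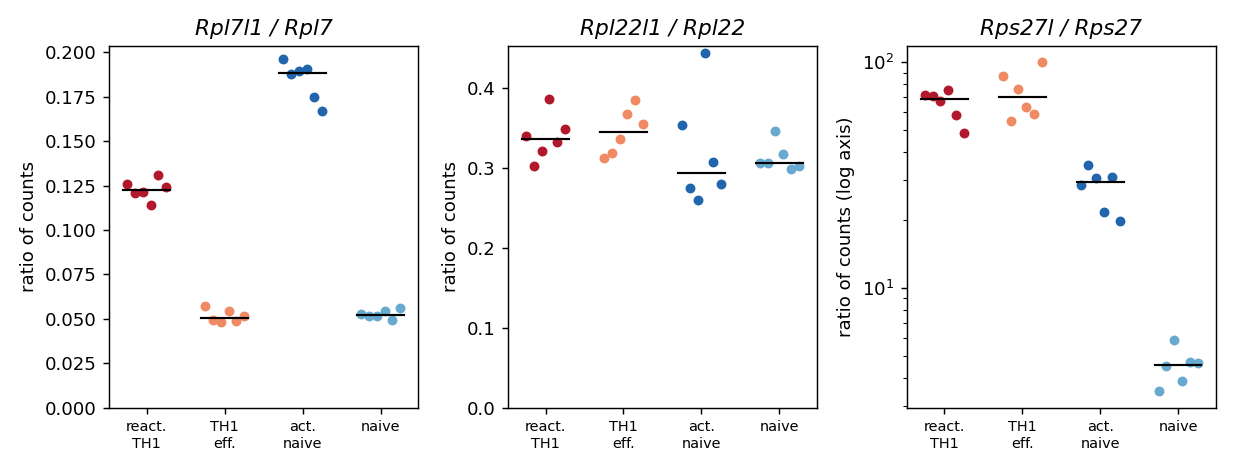
Ratio of the counts of Rpl7l1 to Rpl7, of Rpl22l1 to Rpl22 and of Rps27l to Rps27 (log axis) in each library, with the group median as a line. Rpl7l1 makes up a median of 18.9% of the counts of Rpl7 in activated naive and 5.22% in naive cells, the Rpl22 pair overlaps between all groups, and the Rps27 row is nearly empty, so that ratio is not a ratio of expression.

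Other pairs rest on few counts. Rpl39l, known for expression in testis, had at most 0.958 CPM in any library and a median of 0.125% of the counts of Rpl39 in reactivated TH1, 0.0946% in TH1 effector, 0.183% in activated naive and 0.0785% in naive cells. Its ratio was higher by 1.87 on the log2 scale in activated naive than in naive cells (SE 0.623, exact permutation adjusted p = 0.0162). The 2 groups overlapped in this ratio, and the lowest naive library stood at 0.00800%. Rpl39, the denominator, was itself lower in activated naive cells (log2 fold change -0.67). Rps4y2 was taken as another name of Rps4l, a synonym in RefSeq. GENCODE M21 gives Rps4l as a transcribed pseudogene, but the symbol Rps4y2 does not mark one, so the row was counted as a member. Rps4y2 had a median of 0.0797% of the counts of Rps4x in reactivated TH1 and 0.0477% in TH1 effector cells. The medians were 0.0325% in activated naive and 0.00777% in naive cells. Its ratio was higher by 2.31 in activated naive than in naive cells (SE 0.695, exact permutation adjusted p = 0.00618). It was higher by 2.38 in TH1 effector than in naive cells (adjusted p = 0.0241) and by 0.96 in reactivated TH1 than in activated naive cells (adjusted p = 0.0433) in the same exact permutation tests. These calls of Rpl39l and Rps4y2 were lost when libraries of some numbers were left out, except that of Rps4y2 in activated naive against naive cells. Rps4x, the X-linked member that makes up nearly all of the pair, had 1729 to 2263 CPM (median 1976) in reactivated TH1, 2110.4 to 2475 (median 2322) in TH1 effector, 1227 to 1397 (median 1381) in activated naive and 1524 to 1768 (median 1642) in naive libraries. Because the row of Rps27 was nearly uncounted, the ratio of Rps27l to Rps27 follows few counts of Rps27; it was higher by 2.61 in activated naive than in naive cells and by 3.995 in TH1 effector than in naive cells (exact permutation adjusted p = 0.00618 each).

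Changes were set against transcript length. Across the 76 well-counted members the Spearman correlation between the length of the principal transcript and the log2 fold change was -0.011 for activated naive against naive, 0.13 for TH1 effector against naive, -0.13 for reactivated TH1 against TH1 effector and 0.16 for reactivated TH1 against activated naive cells, all read from the same libraries. The 25 shortest members (271 to 589 bases) had a median change of 0.37 in TH1 effector against naive cells, and the 25 longest (899 to 3706 bases) of 0.51.

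Constituents of the ribosome that carry other names were set beside the members. Fau, which encodes a fusion of a ubiquitin-like protein with Rps30, had medians of 789 CPM in reactivated TH1, 935 in TH1 effector, 488 in activated naive and 721 in naive libraries; it was lower in activated naive than in naive cells (-0.59) and higher in TH1 effector than in naive cells (0.36). Rpl36al had medians of 199.5 CPM in reactivated TH1, 163.8 in TH1 effector, 161.7 in activated naive and 95.5 in naive libraries. It was higher in both stimulated groups than in their unstimulated counterparts, by 0.21 in TH1 and 0.73 in naive cells.

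The lists that follow are read against all tested genes, of which 41.3% were higher and 40.5% lower in activated naive than in naive cells and 44.6% and 40.3% in TH1 effector than in naive cells. For reactivated TH1 against TH1 effector cells these shares were 39.9% and 39.8%, and for reactivated TH1 against activated naive cells 43.4% and 36.4%. Of 23 other genes with TOP messages, 18 were higher and 2 lower in activated naive than in naive cells, 19 higher and 2 lower in TH1 effector than in naive cells, and 12 higher and 4 lower in reactivated TH1 than in TH1 effector cells. In reactivated TH1 against activated naive cells 17 were higher and 2 lower. Their median log2 fold changes were 0.50, 0.74, 0.16 and 0.44 in that order. The list counts Hnrnpa1, whose row was low, with medians of 7.98 CPM in reactivated TH1, 6.29 in TH1 effector, 17.9 in activated naive and 10.3 in naive libraries. It also counts Gnb2l1, another name of Rack1, which is itself a constituent of the ribosome. Npm1, a nucleolar chaperone of assembly, had medians of 3363 CPM in reactivated TH1, 1665 in TH1 effector, 2059 in activated naive and 508 in naive libraries, and rose by 1.02 in TH1 and 2.02 in naive cells on stimulation. The translation elongation factor Eef2 changed by -0.49 in reactivated TH1 against TH1 effector cells and by 0.14 in activated naive against naive cells. Of 11 genes of MTOR signalling and TOP control, 8 were higher and 1 lower in activated naive than in naive cells. In TH1 effector against naive cells 2 were higher and 9 lower. Of the same genes 8 were higher and 2 lower in reactivated TH1 than in TH1 effector cells. None were higher and 8 lower in reactivated TH1 than in activated naive cells. The list pools MTOR and its activators with inhibitors and repressors, such as Tsc1, Tsc2 and Eif4ebp1. These counts therefore give no direction of TOP control. Eif4ebp1, which encodes a repressor of cap-dependent translation, had medians of 72.3 CPM in reactivated TH1, 82.9 in TH1 effector, 55.5 in activated naive and 4.11 in naive libraries. Of 13 genes for escorts of single ribosomal proteins and for disposal of their surplus, 11 were higher and 1 lower in activated naive than in naive cells, and 10 were higher and 1 lower in reactivated TH1 than in TH1 effector cells, with medians of 1.41 and 1.55. In TH1 effector against naive cells 5 were higher and 5 lower, near the shares over all genes, and in reactivated TH1 against activated naive cells 2 were higher and 10 lower. Grwd1, the escort of Rpl3, had medians of 142 CPM in reactivated TH1, 22.3 in TH1 effector, 239.1 in activated naive and 24.02 in naive libraries. It rose by 2.72 in TH1 and 3.35 in naive cells on stimulation, while Rpl3 changed by -0.31 and 0.20 in the same comparisons.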

How the data were processed

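The files are tables of whole-number read counts per gene symbol, 1 per library, deposited without normalization. The submitters' processing notes list STAR, HTSeq, DESeq2 and build mm10. Which of them did what, in which version, with which annotation and strand option, is not given in the sources used here. Per the labels' protocols, libraries were made with the TruSeq Stranded RNA Kit. The 5 closing lines for reads given to no gene stayed out of library sizes and tests. Ambiguous reads stood at 0.967% of all reads, closing lines included, in reactivated TH1, 1.11% in TH1 effector, 0.749% in activated naive and 0.901% in naive libraries. No 2 libraries of a group were alike within sampling noise (lowest chi-square per degree of freedom 9.21).

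The fit used edgeR 4.0.16 (R 4.3.3, limma 3.58.1). filterByExpr left 12584 genes, TMM factors scaled the libraries, and 1 quasi-likelihood model with group and sequencing run was fitted to all 24 libraries. The run was read from the flow cell named in each file's name, numbers 1 to 3 in one and 4 to 6 in the other. Contrasts were tested with glmQLFTest and adjusted by Benjamini-Hochberg over all tested genes, with a threshold of 0.05. Levels are TMM-scaled CPM. Log2 ratios of relatives used a pseudocount of 0.5. The SE beside a fold change is that of the difference of group means of log2 CPM (prior count 2). It comes from the spread within group and run in the groups compared, not from the quasi-likelihood model behind the p-values. For ratios the SE comes from the spread between the libraries of each group. The script was tested on simulated data. Per comparison, the 4 largest rises and falls that passed and averaged 10 CPM or more in the higher group were named, as well as members with a role given as background; those reported came to 33, of which 31 were tested. Some results are not reported here. Coordinates and overlaps came from GENCODE M21, which has 1 gene for 83 of the 84 symbols. DESeq2 1.42.0, other scalings, filters and samples were alternatives. Members and lists were chosen with earlier results of these data known.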

Additional observations from a re-analysis of the deposited data

Results flagged for a closer look

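Among the named members, 132 groups of 6 libraries were checked for a library far from the others (Dixon's test at 95%), and 6 were found. For independent checks about 1 in 20 would be flagged. The genes checked are read from the same libraries, so 6 of 132 cannot be set against that number. In 5 of the 6 flagged groups the library was number 3 of the naive cells, lowest each time: Rpl23a at 584 CPM, Rpl28 at 462 CPM, Rpl36a at 251 CPM, Rps26 at 335 CPM and Rps29 at 878 CPM. The remaining one was Rpl5 in TH1 effector library number 5, lowest at 1575 CPM. Naive library 3 also held the lowest share of counts in members among naive libraries (6.69%). Without naive library 3, a setting chosen after seeing the data, 24 members were higher and 36 lower in activated naive than in naive cells, 62 higher and 4 lower in TH1 effector than in naive cells, and 17 higher and 26 lower in the difference of responses.

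For 23 of the 31 tested named members the response to stimulation differed between TH1 and naive cells by the interaction test in edgeR. The same test called 68.0% of all genes, and some members were named because they passed it. Values for the 23 are log2 differences, TH1 response less naive response. Those not given above with a value were Rpl10 (-0.19), Rpl11 (-0.29), Rpl13a (0.35), Rpl22 (-0.33), Rpl22l1 (-0.38), Rpl28 (-0.50), Rpl3 (-0.51), Rpl36a (-0.28), Rpl39 (0.34), Rplp0 (-0.51), Rplp1 (0.41), Rps14 (0.18), Rps26 (-0.44) and Rpsa (-0.25). Rps27, at 1.51, is a nearly empty row. The others were Rpl10a (-0.80), Rpl7l1 (-0.67), Rps12 (-0.74), Rps2 (-1.10), Rps21 (0.63), Rps23 (0.41), Rps27l (-1.24) and Rps29 (0.51).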

How the results depend on the processing

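Of the alternative values of counts, medians, shares and ratios, 414 kept their direction and side of the threshold (counts within 1.5 times), 31 were weaker, 8 stronger and 2 moved. With scaling by total counts alone, 14 members were higher in activated naive than in naive cells with a median of -0.17, and 61 were lower in reactivated TH1 than in TH1 effector cells with a median of -0.26. With the first run alone 1 member was lower in TH1 effector than in naive cells, and 7 had a higher response in TH1 cells. With the second run alone 16 were lower in reactivated TH1 than in TH1 effector cells, and 9 had a higher and 16 a lower response in TH1 cells. For reactivated TH1 against activated naive cells 2 members were lower under DESeq2, with the groups compared only, and with numbers 5 and 6 left out. With a pseudocount of 5 the ratio of Rpl39l to Rpl39 passed there (-0.83, exact permutation adjusted p = 0.0241) and that of Rps4y2 to Rps4x did not (0.66, exact permutation adjusted p = 0.0551). The causes were not tested.

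Without naive library 3 the members with a higher response in TH1 cells numbered 17. Leaving out each number in turn, the members lower in reactivated TH1 than in activated naive cells numbered 1 to 2 (2 without number 1 or 5), and those with a higher response in TH1 cells 8 to 14 (9 without number 1, 8 without number 4). The Rpl22l1 ratio in TH1 effector against naive cells ranged from 0.10 to 0.18 and passed without number 3 (adjusted p = 0.0397). The Rpl39l ratio in activated naive against naive cells ranged from 1.61 to 2.03 and did not pass without number 3, 4 or 6. The Rps4y2 ratio ranged from 2.08 to 2.72 in TH1 effector against naive cells, where it did not pass without number 3, 4, 5 or 6, and from 0.76 to 1.12 in reactivated TH1 against activated naive cells, where it passed only without number 2. These are exact permutation tests.

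Of 2758 alternative values of named members, 2633 kept their direction and side of the threshold, 102 lost a call, 22 gained one and 1 reversed (Rpl28, activated naive against naive cells, -0.0090 with total counts). For Rpl28 in activated naive against naive cells the call was also lost without number 2, 3, 4 or 6 (0.16, 0.11, 0.15 and 0.17). Rpsa lost it there without number 2, 3 or 4 (0.16, 0.16 and 0.15), and Rpl39l without any number but 5 (0.83 to 1.03). In reactivated TH1 against TH1 effector cells Rps26 and Rpl7 lost their calls without number 2 or 6 and Rpl10a without number 6 (-0.13), and Rps12 gained one without number 4 (-0.19). Rps23 lost its call in TH1 effector against naive cells without number 2, 3 or 4, where Rps14 gained one without number 1, 5 or 6 and Rplp2 without number 5 (0.16). Rps29 lost its call in reactivated TH1 against activated naive cells without number 4 (0.14). In the difference of responses calls were lost for Rps14 without number 1, 3, 4 or 6, Rpl10 without 2, 3, 4 or 6, Rpsa without 2 or 3, Rpl36a without 3 or 6, and Rpl39 without 4. Over all 17 alternative settings of that difference, the call of Rps14 held in 7 and that of Rpl10 in 6.

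With the number as a replicate block, higher and lower members were 29 and 32 in activated naive against naive, 68 and 3 in TH1 effector against naive, 7 and 41 in reactivated TH1 against TH1 effector, 71 and 1 in reactivated TH1 against activated naive cells, and 15 and 31 in the difference of responses. It changed no call of a named member. The labels do not say what the numbers mark. Deviations from the means of group and run correlated between libraries of the same number from 0.079 to 0.419, over 0.1 in 35 of 36 pairs. The rule asked for all of them, so the fits without the block stand as given. From the group means alone, which leave the run in, the correlations ranged from 0.106 to 0.430 and all 36 were over 0.1. The library of the same number was the best match in 32 of 36 pairs, a hint from the data that the numbers pair the libraries. The permutation tests of ratios took the libraries as unpaired. With the number as a replicate block, in exact two-sided sign-flip tests chosen after seeing the data, the smallest p that 6 pairs allow is 0.03125. It was reached in 12 of 20 tests, where it became an adjusted p of 0.0521, so none could pass. The 10 ratios that had passed were among these 12, each with all 6 pairs in its direction. They were those of Rpl7l1 (1.81 in activated naive against naive, 1.25 in reactivated TH1 against TH1 effector, -0.58 in reactivated TH1 against activated naive cells), of Rps27l (2.61 in activated naive against naive, 3.995 in TH1 effector against naive, 1.24 in reactivated TH1 against activated naive cells), of Rpl39l (1.87 in activated naive against naive cells) and of Rps4y2 (2.31, 2.38 and 0.96 in the same 3 comparisons as Rps27l). No row for mitochondrial genes was found in the tables, so shares without them were not run. The smallest exact p over 6 against 6 libraries, the few counts of the nearly empty rows and the unknown counting rules limit what can be said of single members.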
